A study of Mus musculus with 6 samples.

Results

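The genes described here encode beta and gamma subunits of heterotrimeric G proteins. They are the 10 symbols Gnb1, Gnb2, Gnb4 and Gnb5 (beta) and Gng2, Gng4, Gng5, Gng7, Gng10 and Gng12 (gamma), of 23359 symbols in the table. Each of them stood on 1 row, so the rule of keeping the highest row of a repeated symbol left out none of their values. The 10 were selected on their FPKM in these 6 libraries, with the comparison below in view, so their levels and their differences between NULL and WT are what chose them. These values are therefore given as a description, with limma's call for each gene stated and no p-value printed, and nothing is read from the number of them that were called.

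RNA was sequenced from 3 Gab2 -/- samples (NULL A, B and C) and 3 Gab2 +/+ samples (WT A, B and C) labelled as mouse bone marrow. GAB2 is a scaffolding adaptor that links cytokine receptors and the BCR-ABL1 oncoprotein to SHP2 and phosphatidylinositol 3-kinase, and the series concerns transformation by BCR-ABL1. The labels used here give no strain, sex, age or treatment, nor whether the cells carried BCR-ABL1 or came from separate animals. P-values thus measure the spread between these samples only, which may be technical. Values are FPKM, fragments counted per length of transcript and per depth of the library, which may be compared between genes. Values of single libraries are listed in the order A, B, C.

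A receptor that activates a heterotrimeric G protein frees its alpha subunit from a tightly joined pair of a beta and a gamma subunit. The pair then acts on its own targets, among them phosphatidylinositol 3-kinase gamma, phospholipase C beta and receptor kinases. Gamma subunits are small, carry a lipid at their end that holds the pair at the membrane, and differ more from one another than the beta subunits do, apart from the divergent Gnb5. In B-cell precursors, chemokine receptors such as CXCR4 signal through G proteins of the Gi class.

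The Gng4 transcripts stood out among the gamma subunits, so the sequences at which they start are shown first, with those of Gng5 and Gng10, the most abundant gamma members in WT. They are RefSeq promoters on GRCm38.p6, 300 bases each, of which 250 lie before the annotated start and 50 after it. RefSeq gives Gng4 a pair of starts, whose windows overlap. The table held a promoter for 9 of the 10 genes. Capitals mark every match, on either strand, to the E-box CANNTG, the GC box GGGCGG, the ETS core CCGGAA, the GAS-like pair TTCNNNGAA of STAT factors, the forkhead core TGTTTAC, the EBF palindrome or the TATA box TATAAA.
Gng4, first start, chr13:13783809-13784108, plus strand: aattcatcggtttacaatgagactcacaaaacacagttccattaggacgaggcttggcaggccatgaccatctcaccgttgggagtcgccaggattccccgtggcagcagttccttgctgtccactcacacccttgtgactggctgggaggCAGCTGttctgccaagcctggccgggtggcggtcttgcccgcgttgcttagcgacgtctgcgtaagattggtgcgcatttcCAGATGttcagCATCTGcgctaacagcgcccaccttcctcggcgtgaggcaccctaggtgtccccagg
Gng4, second start, chr13:13784057-13784356, plus strand: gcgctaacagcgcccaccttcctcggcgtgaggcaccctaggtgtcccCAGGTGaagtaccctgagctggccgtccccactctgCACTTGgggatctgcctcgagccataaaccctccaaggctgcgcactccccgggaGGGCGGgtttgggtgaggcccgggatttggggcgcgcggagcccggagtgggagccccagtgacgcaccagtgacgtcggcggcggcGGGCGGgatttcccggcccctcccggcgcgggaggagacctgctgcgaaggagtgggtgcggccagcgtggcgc
Gng5, chr3:146499586-146499885, plus strand: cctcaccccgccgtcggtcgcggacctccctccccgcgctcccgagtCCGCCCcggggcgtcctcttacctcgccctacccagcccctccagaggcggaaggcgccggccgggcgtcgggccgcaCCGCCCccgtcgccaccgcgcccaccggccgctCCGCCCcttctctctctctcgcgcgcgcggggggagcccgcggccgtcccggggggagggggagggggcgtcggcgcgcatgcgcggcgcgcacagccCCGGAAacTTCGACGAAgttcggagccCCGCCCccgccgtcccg
Gng10, chr4:59034906-59035205, plus strand: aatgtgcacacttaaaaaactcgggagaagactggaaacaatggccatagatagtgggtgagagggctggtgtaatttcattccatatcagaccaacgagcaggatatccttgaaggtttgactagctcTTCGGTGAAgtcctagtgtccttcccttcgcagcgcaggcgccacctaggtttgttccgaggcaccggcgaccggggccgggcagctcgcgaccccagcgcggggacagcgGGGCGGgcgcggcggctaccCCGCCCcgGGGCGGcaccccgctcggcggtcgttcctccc

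The window at the first start of Gng4 held 3 E-boxes and no match to the other motifs searched. The window at its second start held 2 E-boxes and 2 GC boxes. Gng5 held 4 GC boxes, 1 ETS core and 1 GAS-like pair, and Gng10 held 3 GC boxes and 1 GAS-like pair. Neither Gng5 nor Gng10 had an E-box in its window, but Gnb1, Gnb2, Gnb5, Gng2, Gng7 and Gng12 each had at least 1. Of all 32841 promoters of this length, 72.3% held an E-box, 35.7% a GC box, 14.9% the ETS core, 8.30% the GAS-like pair, 13.6% the TATA box, 3.65% the forkhead core and 0.904% the EBF palindrome. No matches of different motifs overlapped in the windows of these genes. The windows also differed in base composition. GC content was 58.3% and 71.3% at the starts of Gng4, 80.7% for Gng5 and 62.3% for Gng10, against a median of 52.7% over all promoters. Gng2 had the lowest value of the 9 genes, 44.7%. A match describes letters in a window and not a bound site.

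Gab2 itself read 0.123, 0.145 and 0.203 FPKM in NULL, against 3.33, 3.10 and 2.43 FPKM in WT, so that the NULL mean was 5.31% of the WT mean. A value of 1 FPKM for the mean of the 6 libraries was required for testing, which 9916 symbols and 8 of the 10 genes met. Depth was roughly 17.8 M to 67.6 M fragments a library. Cell type markers went against an unsorted marrow. All 14 B-lineage markers were tested, and their summed level was 5431 to 5611 FPKM in NULL and 3761 to 4075 FPKM in WT. Of the 14, 11 were called higher and 1 lower, where 23.3% of all tested symbols were called higher and 42.0% lower. The most abundant of them, Cd24a, went against the sum, at a mean of 909 FPKM in NULL and 1033 FPKM in WT. The 8 neutrophil markers summed to at most 0.149 FPKM in NULL and 0.186 FPKM in WT. The 6 erythroid markers summed to at most 0.222 FPKM in NULL and 0.303 FPKM in WT. The highest sum of 7 T and NK cell markers was 0.466 FPKM in NULL and 0.255 FPKM in WT, and that of 6 monocyte and macrophage markers 0.374 FPKM in NULL and 0.610 FPKM in WT. The 6 megakaryocyte and platelet markers summed to 0.415 to 0.765 FPKM in NULL and 0.0219 to 0.138 FPKM in WT. Among 7 stromal and endothelial markers Pecam1, which B-cell precursors also express, averaged 24.9 FPKM in NULL and 11.1 FPKM in WT, and the other 6 stayed below 0.5 FPKM in every library. The part of the B-lineage difference in the results below was not tested, and in bulk RNA fewer cells of a type cannot be told apart from less RNA per cell.

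**Figure D1:**
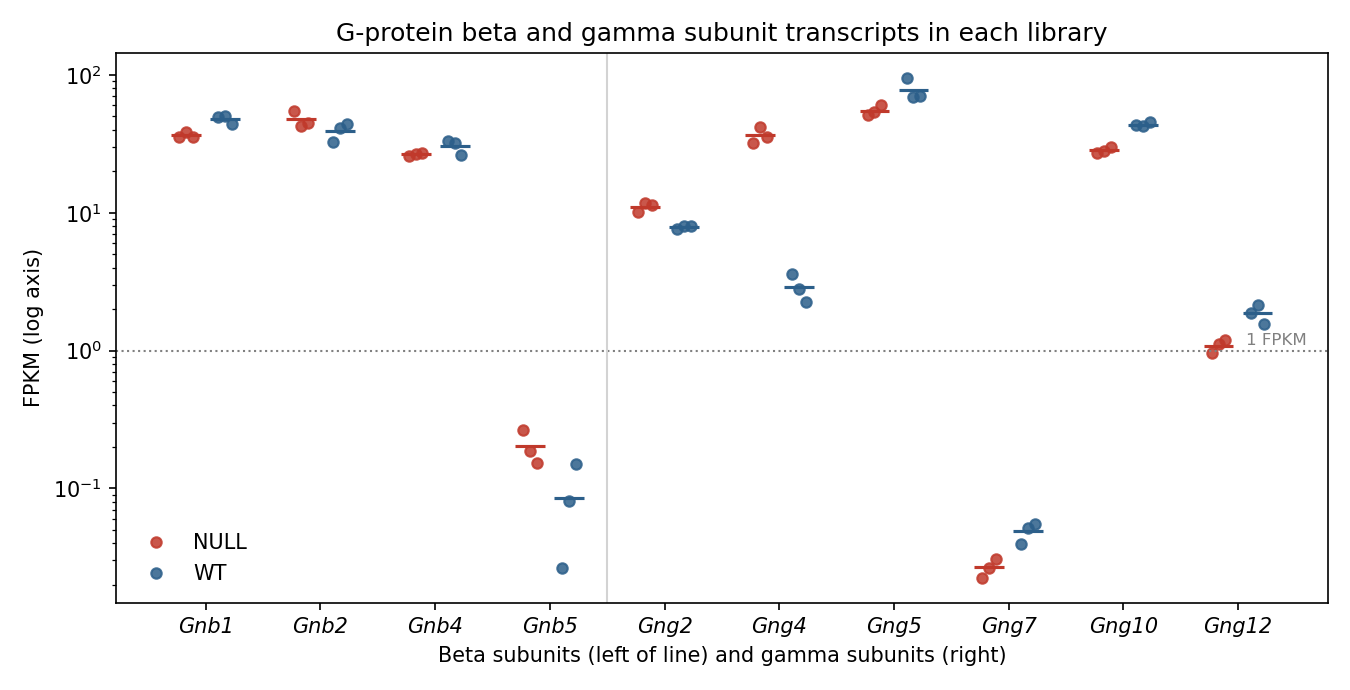
FPKM of the 4 beta and 6 gamma subunit genes on a log axis. Each point is a library, with NULL left of WT, and bars are group means. Gng4 lies at 32.2 to 41.5 FPKM in NULL and at 2.24 to 3.57 FPKM in WT, while the other genes differ by far less, and Gnb5 and Gng7 lie below 1 FPKM in every library.

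Gng4 showed by far the widest difference of the 10 genes. The gamma-4 subunit is best known from the nervous system. The gene is protein coding and lies at chr13:13784059-13827896, plus strand (GRCm38, as are all positions here). It read 32.2, 41.5 and 35.4 FPKM in NULL, against 3.57, 2.81 and 2.24 FPKM in WT. All NULL libraries lay far above all WT libraries, without overlap. The means were 36.3 ± 4.77 FPKM in NULL and 2.87 ± 0.669 FPKM in WT (SD, n = 3 each), a ratio of 12.7. On the log2(FPKM + 1) scale the change was 3.28 (SE 0.141), rank 9 from the highest among the 9916 tested symbols. The WT values rest on roughly 159 to 609 fragments a library, and no window of 100 bases in the Gng4 transcripts occurs in a transcript of another annotated gene.

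Gng2, a widely expressed gamma subunit that pairs with several beta subunits, was the other gamma gene called higher. It lies at chr14:19872559-19977627 on the minus strand. It read 10.1, 11.7 and 11.4 FPKM in NULL, against 7.66, 7.97 and 8.07 FPKM in WT. The groups did not overlap, and the WT libraries were close together. The log2 change was 0.44 (SE 0.072), a ratio of means of 1.40. Gng4 thus stood above Gng2 in NULL and below it in WT. The ratio of Gng4 to Gng2 within a library was 3.28 ± 0.244 in NULL and 0.365 ± 0.0953 in WT (SD, n = 3 each).

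Gng5, a gamma subunit found in nearly all tissues, was the most abundant member in both groups. It lies at chr3:146499807-146505572 on the plus strand. It read 51.2, 53.4 and 60.0 FPKM in NULL, against 95.0, 69.0 and 70.3 FPKM in WT. WT A stood well above the other WT libraries, and the groups did not overlap. Its log2 change was -0.49 (SE 0.131) on the deposited scale. That call was lost under all 4 rescalings of the libraries (median-of-ratios, quantile, and equal totals with or without small RNA genes), with changes between -0.33 and -0.067. The direction was kept, but whether Gng5 was called depended on the scaling.

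Gng10, another widely expressed gamma subunit, lies at chr4:59035088-59041903 on the plus strand. It read 27.0, 28.2 and 30.1 FPKM in NULL, against 43.1, 42.2 and 45.5 FPKM in WT. The NULL libraries were all lower than the WT libraries. The log2 change was -0.60 (SE 0.0673), and the call was lost under 1 of 4 rescalings, that to equal totals (-0.33, SE 0.269). The value is uncertain in one respect. Of the windows of 100 bases in its transcripts, 70.3% also occur in Gm20503, a same-strand gene model that overlaps Gng10. Gm20503 was not analysed here.

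Gng12, a gamma subunit linked to the actin cytoskeleton, was weakly expressed. It lies at chr6:66896397-67021350 on the plus strand. It read 0.958, 1.12 and 1.19 FPKM in NULL, against 1.87, 2.15 and 1.56 FPKM in WT. The groups did not overlap. The log2 change was -0.45 (SE 0.0992), and the call was lost under both rescalings to equal totals. Gng7, which in mouse striatum serves receptors that raise cAMP, was near the limit of detection. It read 0.0225 to 0.0310 FPKM in NULL and 0.0398 to 0.0548 FPKM in WT, resting on roughly 2 to 7 fragments a library. It did not reach the level required for testing.

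Among the beta subunits, which share a WD-repeat propeller fold, Gnb1 was the only one called. It lies at chr4:155491361-155559269 on the plus strand. Gnb1 read 35.2, 38.7 and 35.5 FPKM in NULL, against 49.9, 50.2 and 44.0 FPKM in WT. The NULL libraries were all below the WT libraries. The log2 change was -0.39 (SE 0.0769), and the call was lost under 3 of 4 rescalings, with the smallest change at -0.012.

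Gnb2, at chr5:137528127-137533510 on the minus strand, read 55.0, 42.9 and 45.1 FPKM in NULL, against 32.4, 41.3 and 43.7 FPKM in WT. The groups overlapped, and NULL A and WT A were the outer libraries. The log2 change was 0.28 (SE 0.134), not called on the deposited scale but called higher under 3 of 4 rescalings, with changes from 0.43 to 0.66. It was 0.17 without NULL A and 0.15 without WT A. Gnb4, at chr3:32580332-32616585 on the minus strand, read 25.6, 26.7 and 27.2 FPKM in NULL, against 33.1, 32.2 and 26.3 FPKM in WT. WT C lay within the NULL range. Its log2 change was -0.19 (SE 0.0928), not called, positive under 3 of 4 rescalings, and called at -0.29 when WT C was left out.

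Gnb5, the divergent beta subunit, pairs with R7-class RGS proteins, which speed the return of alpha subunits to rest. It lies at chr9:75306288-75345876 on the plus strand. It read 0.266, 0.186 and 0.153 FPKM in NULL, against 0.0265, 0.0803 and 0.149 FPKM in WT. The lowest NULL value lay just above the highest WT value, on roughly 3 to 38 fragments a library. All 6 genes of the R7 class and its membrane anchors (Rgs6, Rgs7, Rgs9, Rgs11, Rgs7bp and Rgs9bp) were also below 1 FPKM, with a highest mean over the 6 libraries of 0.143 FPKM for Rgs11, which read 0.764 FPKM in WT C and at most 0.0594 FPKM in the other libraries.

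In all, 2 of the 10 genes were called higher (Gng2 and Gng4), 4 lower (Gnb1, Gng5, Gng10 and Gng12) and 2 not called. The remaining 2 were not tested. Over all tested symbols 65.3% were called, 23.3% higher and 42.0% lower. That made 2311 symbols higher and 4168 lower on the deposited scale. The split was 3143 and 3242 with median-of-ratios factors, 2827 and 3269 on quantile-normalized values, 2023 and 1003 with equal totals, and 4480 and 2046 with totals equal apart from small RNA genes. The libraries of the groups did not overlap for 6 of the 8 tested genes, against 71.0% of all tested symbols. The median log2 change of the 8 was -0.29, beside -0.13 over all tested symbols. Of the 6 calls, those of Gng4 and Gng2 held in the same direction under each of the 4 rescalings.

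**Figure D2:**
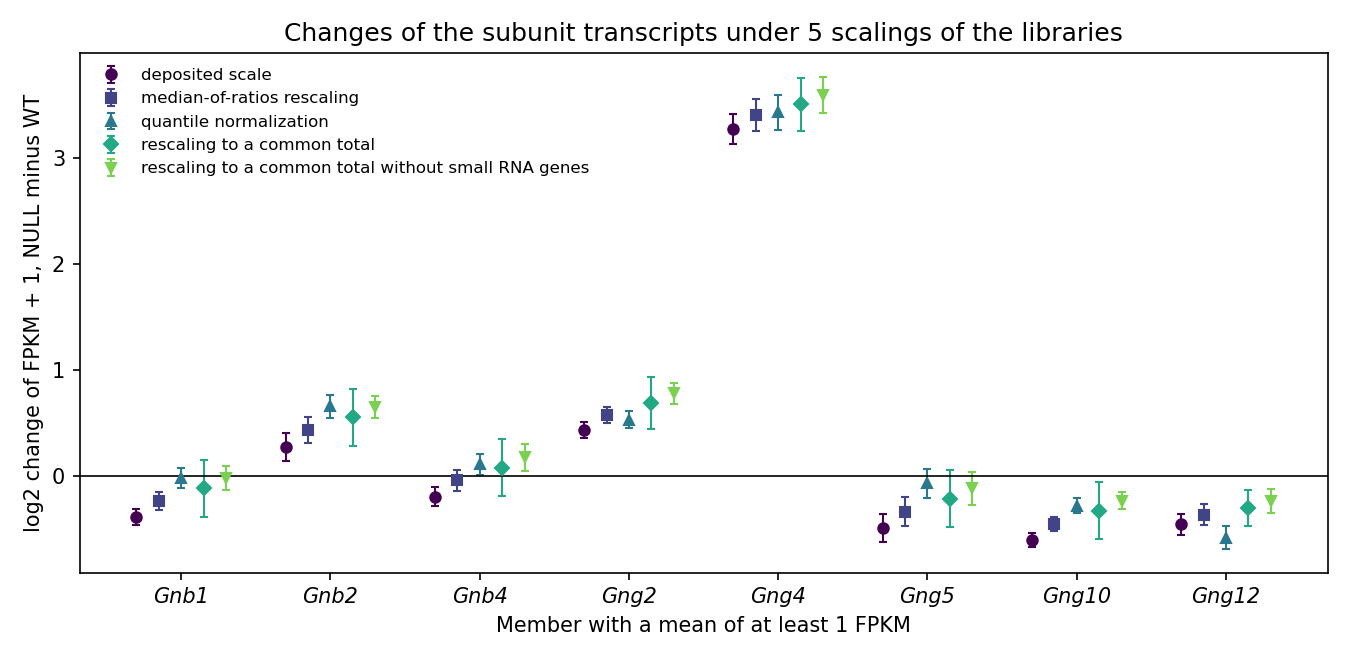
Log2 change of FPKM + 1, NULL minus WT, for the 8 tested genes, on the deposited scale and after 4 rescalings of the libraries. Points are limma estimates and bars their standard errors. Gng4 stays between 3.28 and 3.60, while Gnb1, Gng5 and Gnb4 move toward 0 or across it.

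The rescalings shifted the median log2 change of all tested symbols from -0.13 to values between -0.029 and 0.20. Shares of the deposited FPKM within a library do not change when all values of that library are multiplied by 1 factor, as 3 of the 4 rescalings do. Quantile normalization can move them, and shares were not computed under it. Among the 6 gamma members Gng4 made up 26.5%, 30.5% and 25.6% of the summed FPKM in NULL, against 2.36%, 2.26% and 1.75% in WT. The mean share was 27.5 ± 2.64% in NULL and 2.12 ± 0.328% in WT (SD, n = 3 each), a difference of 25.4 percentage points.

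The share of Gng5 was 42.1%, 39.3% and 43.4% in NULL, against 62.8%, 55.5% and 55.0% in WT. That of Gng10 was 22.3%, 20.7% and 21.8% in NULL, against 28.5%, 34.0% and 35.7% in WT. Both were lower in every NULL library than in any WT library. The share of Gng2 was higher, at 8.40 ± 0.174% in NULL and 5.94 ± 0.757% in WT (SD, n = 3 each). Gng12 made up 0.823 ± 0.0357% in NULL and 1.40 ± 0.290% in WT, and Gng7 at most 0.0429% of any library. Shares add to the whole by construction, so a higher share of one gene lowers those of the others.

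The summed level of the gamma members was 121, 136 and 138 FPKM in NULL, against 151, 124 and 128 FPKM in WT, and the groups overlapped. Without Gng4 the sum was 95.5 ± 6.82 FPKM in NULL and 132 ± 14.1 FPKM in WT (SD, n = 3 each), and on the deposited scale the groups then did not overlap. The 4 beta members summed to 111 ± 4.57 FPKM in NULL and 118 ± 5.21 FPKM in WT. The ratio of summed beta to summed gamma was 0.956, 0.798 and 0.781 in NULL, against 0.763, 0.997 and 0.894 in WT, again with overlap. The mean difference was -0.0395, and 0.0165 without WT B. Within the beta members Gnb2 exceeded Gnb1 in every NULL library, at a ratio of 1.31 ± 0.230, and lay below it in every WT library, at 0.822 ± 0.172 (SD, n = 3 each). In WT C, however, these genes were nearly equal, at a ratio of 0.993.

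**Figure D3:**
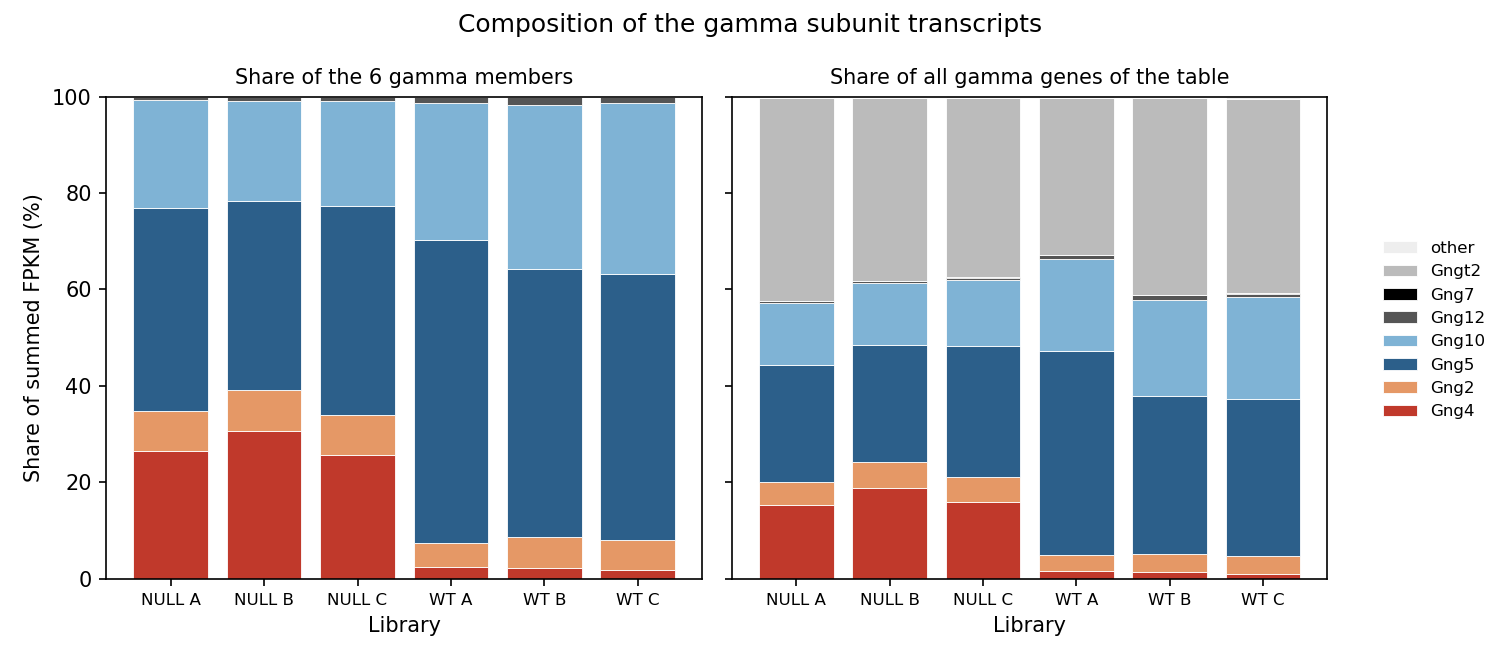
Share of each gamma subunit gene in the summed FPKM of a library, in percent, over the 6 gamma members (left) and over all gamma genes of the table (right), with NULL libraries left of WT. Gng4 takes 25.6% to 30.5% of the member sum in NULL and 1.75% to 2.36% in WT, and Gngt2 takes 32.5% to 42.2% of the sum over all gamma genes.

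The list of members leaves out Gngt2, the gamma subunit of cone transducin, which had the highest mean of the gamma genes in NULL and in WT. In NULL it lay above Gng5 in every library, while in WT the ranges overlapped and Gng5 was higher in WT A. It averaged 85.1 ± 3.42 FPKM in NULL and 82.2 ± 7.69 FPKM in WT (SD, n = 3 each) and was not called (log2 change 0.053, SE 0.0851, limma adjusted p = 0.607), but was called higher under 3 of 4 rescalings. The gene overlaps Abi3 on the opposite strand, which read 3.99 ± 0.612 FPKM in NULL and 3.00 ± 0.258 FPKM in WT. With all 12 gamma genes in the sum, Gngt2 held 39.2 ± 2.63% in NULL and 37.9 ± 4.64% in WT. Gng4 then held 16.7 ± 1.91% in NULL and 1.32 ± 0.275% in WT. The sum over all gamma genes averaged 217 FPKM in both groups. Gng3 read at most 0.803 FPKM in any library, and Gnb3, Gng8, Gng11, Gng13 and Gngt1 at most 0.231 FPKM, with Gng11 listed at 0 in all 6 libraries.

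The order of the levels differed between the groups. In NULL it ran Gng5, Gnb2, Gnb1, Gng4, Gng10, Gnb4, Gng2, Gng12, Gnb5 and Gng7 from high to low. The ranges of the libraries overlapped for the neighbours Gng5 and Gnb2, Gnb1 and Gng4, and Gng10 and Gnb4. In WT it ran Gng5, Gnb1, Gng10, Gnb2, Gnb4, Gng2, Gng4, Gng12, Gnb5 and Gng7, with overlap between Gnb1 and Gng10, Gng10 and Gnb2, Gnb2 and Gnb4, and Gnb5 and Gng7. Gng4 thus stood near Gnb1 in NULL and below Gng2 in WT.

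The genes whose profile over the 6 libraries was most like that of Gng4 were Adprhl1, Tmem59l, 4632428N05Rik, Htra3 and Grtp1. Likeness was the root mean square difference of centred log2(FPKM + 1) values, which was 0.198, 0.253, 0.266, 0.277 and 0.278 for them. They were picked on these same libraries, so their difference between NULL and WT follows from the choice. Adprhl1 averaged 7.49 ± 0.936 FPKM in NULL and 0.0609 ± 0.105 FPKM in WT, and Tmem59l 16.7 ± 1.93 FPKM in NULL and 1.38 ± 0.506 FPKM in WT (SD, n = 3 each). 4632428N05Rik averaged 12.8 ± 1.31 FPKM in NULL and 0.902 ± 0.189 FPKM in WT. The nearest profiles to the other genes were much closer, from 0.0156 (Ino80 to Gnb4) to 0.0662 (Nutf2 to Gng5). Dtx3l was nearest to Gng2, Zc3h8 to Gng10, Rbm25 to Gng12, Mfn1 to Gnb1 and Zfand2b to Gnb2.

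**Figure D4:**
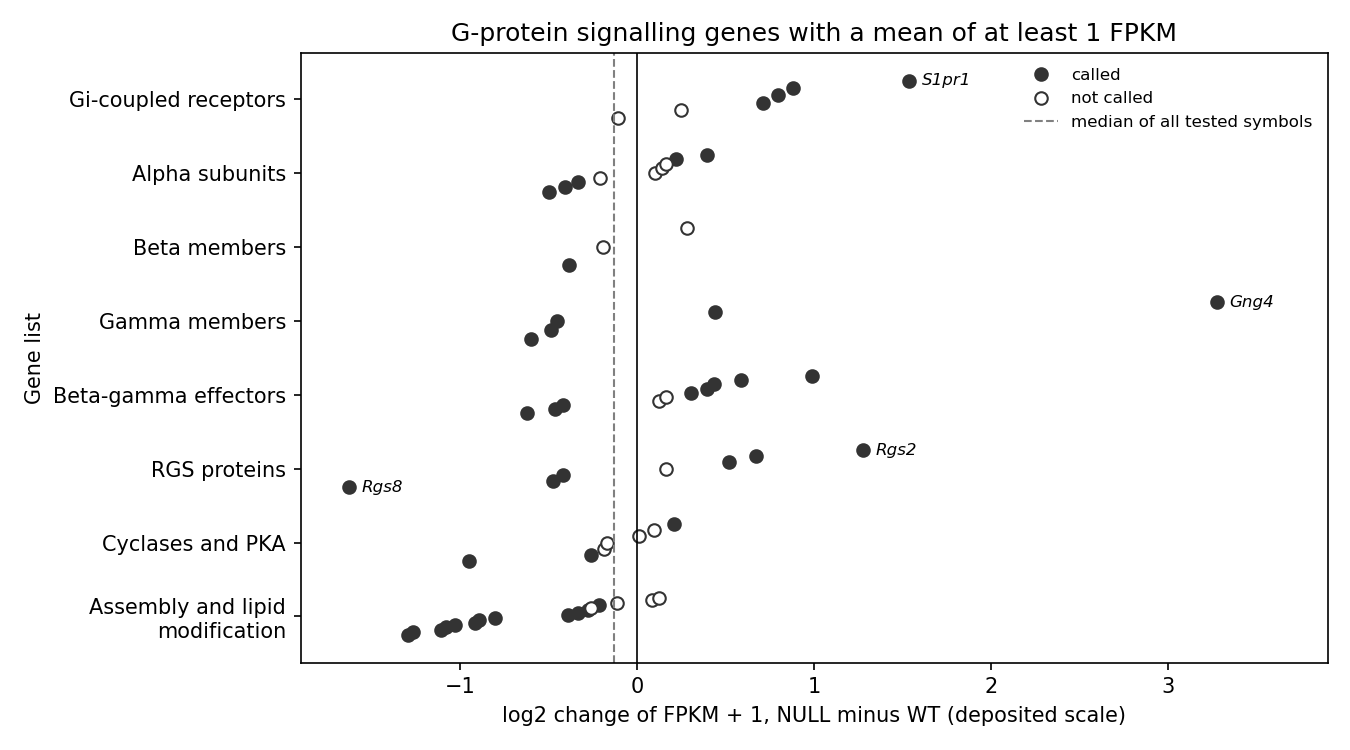
Log2 change of FPKM + 1, NULL minus WT, on the deposited scale for the tested genes of the lists on the axis, one point a gene. Gngt2, Gnb1l and Gnb2l1 are not plotted. Filled points passed limma's adjusted p of 0.05, open points did not, and the dashed line is the median of all tested symbols at -0.13. Gng4 lies at 3.28, S1pr1 at 1.54, Rgs2 at 1.28 and Rgs8 at -1.63.

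Other genes of G-protein signalling were taken from lists of 117 symbols in the table, of which 58 were tested. Limma called 15 of the 58 higher and 25 lower in NULL. The 25 include Gnb1l and Gnb2l1, listed for their names and not as beta subunits. Of all tested symbols 65.3% were called, 23.3% higher and 42.0% lower. The 58 genes had a median log2 change of -0.14 beside -0.13 for all tested symbols. With totals made equal over all but the small RNA genes the balance was 28 higher and 11 lower, and 4480 and 2046 for all 9916 tested symbols.

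The tested receptors of leukocytes that couple to Gi were higher or not called. Of 6 tested, 4 rose and 0 fell, each of the 4 also under all rescalings (median log2 change 0.76). Over all tested symbols 23.3% were called higher and 42.0% lower. The other 14 of the 20 listed receptors were too low for testing. Among these, libraries did not overlap for Cnr2 and Ccr6, lower in NULL, and for Gpr183 and P2ry13, higher in NULL. Their levels were low, with means in NULL and WT of 0.422 and 0.960 FPKM for Cnr2 and 0.00797 and 0.151 FPKM for Ccr6. The means were 0.340 and 0.262 FPKM for Gpr183 and 0.332 and 0.165 FPKM for P2ry13. Libraries did not overlap for 71.0% of all tested symbols. Cxcr4, the receptor that holds B-cell precursors in marrow, averaged 94.5 ± 2.74 FPKM in NULL and 54.1 ± 6.04 FPKM in WT (limma log2 change 0.80, SE 0.0898, adjusted p = 0.000174). S1pr1, which guides exit of lymphocytes, averaged 6.27 ± 0.420 FPKM in NULL and 1.52 ± 0.395 FPKM in WT (log2 change 1.54). Cxcr5 averaged 30.5 ± 1.12 FPKM in NULL and 16.1 ± 1.93 FPKM in WT, and S1pr4 11.0 ± 1.35 FPKM in NULL and 6.33 ± 0.678 FPKM in WT. Ccr7 was not called under any scaling. Lpar1 was not called at 4.87 ± 0.287 FPKM in NULL and 3.97 ± 0.809 FPKM in WT, but was called higher under 2 of 4 rescalings and, at a log2 change of 0.38, when WT C was left out.

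Alpha subunits, which bind beta-gamma pairs at rest, were mixed. Of 9 tested, 2 rose and 3 fell (median 0.10), where 23.3% of all tested symbols were called higher and 42.0% lower. The balance turned with the scaling, to 4 higher and 2 lower with median-of-ratios factors, 2 and 1 on quantile-normalized values, 1 and 0 with equal totals, and 5 and 0 with totals equal apart from small RNA genes. That of all 9916 tested symbols turned too, to 3143 and 3242, 2827 and 3269, 2023 and 1003, and 4480 and 2046 in that order. Gna11, the other gene called higher, lost its call under 2 rescalings and when NULL A, NULL B, WT A or WT B was left out. Gna12 rose to 9.43 ± 1.16 FPKM in NULL, against 6.91 ± 0.411 FPKM in WT (limma log2 change 0.40, SE 0.0922, adjusted p = 0.00633), and was called under all rescalings. Gnas, the stimulatory alpha subunit, was lower at 116 ± 6.04 FPKM in NULL and 165 ± 16.6 FPKM in WT, but its call held under 1 of 4 rescalings. Gnai3 and Gna13 were also called lower, held under 0 and 1 of 4, and Gnai3 changed sign under 2. Gnai2, the main Gi subunit of lymphocytes, read 67.2 ± 5.43 FPKM in NULL and 62.5 ± 5.20 FPKM in WT. It was not called as deposited, while 3 of 4 rescalings called it higher, with log2 changes from 0.26 to 0.54.

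Of 21 listed targets of the beta-gamma pair 10 were tested, of which 5 rose and 3 fell (median 0.23). Over all tested symbols 23.3% were called higher and 42.0% lower. Under the rescalings 5 to 7 of the 10 were higher and 0 to 3 lower, where 2023 to 4480 of all 9916 tested symbols were higher and 1003 to 3269 lower. All 5 that rose (Plcb2, Plcb3, Pik3cg, Adrbk1 and Cacna1b) were called under each rescaling. Plcb2, a phospholipase that the pair activates, averaged 4.42 ± 0.0637 FPKM in NULL and 2.62 ± 0.384 FPKM in WT (limma log2 change 0.59, SE 0.0886, adjusted p = 0.000712), and Plcb3 rose by 0.30 on the log2 scale. Pik3cg, the catalytic subunit of the kinase that the pair drives, averaged 20.9 ± 0.747 FPKM in NULL and 15.7 ± 1.34 FPKM in WT (log2 change 0.39). Of its adaptors, Pik3r6 was lower at 3.93 ± 0.587 FPKM in NULL and 5.76 ± 0.405 FPKM in WT, and Pik3r5 was not called at 2.37 ± 0.251 FPKM in NULL and 2.09 ± 0.0566 FPKM in WT, but was called higher under 2 rescalings. The call for Pik3r6 held under 2 of 4 rescalings. Adrbk1, the receptor kinase GRK2 that the pair recruits, averaged 133 ± 8.29 FPKM in NULL and 98.1 ± 5.01 FPKM in WT (log2 change 0.44). Elmo1, which carries the signal to RAC, fell to 13.1 ± 0.282 FPKM in NULL, against 20.8 ± 0.810 FPKM in WT, and its call was lost under 1 rescaling.

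Among 7 tested RGS genes of the Gi and Gq classes, whose products switch alpha subunits off, 3 rose and 3 fell (median 0.16). The shares over all tested symbols were 23.3% higher and 42.0% lower, and 8 of the 15 listed RGS genes were not tested. Rgs2 averaged 11.2 ± 0.496 FPKM in NULL and 4.16 ± 1.27 FPKM in WT (limma log2 change 1.28, SE 0.175, adjusted p = 0.000442). Rgs8 averaged 0.0997 ± 0.0431 FPKM in NULL and 2.40 ± 0.300 FPKM in WT (log2 change -1.63, SE 0.0935, adjusted p = 1.76e-05). Both held under all rescalings. Under the rescalings 2 to 4 of the 7 were higher and 1 to 3 lower, where 2023 to 4480 of all 9916 tested symbols were higher and 1003 to 3269 lower. Rgs10, the smallest of the 3 rises, lost its call on quantile-normalized values and when NULL A, NULL C, WT B or WT C was left out.

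Among 7 tested cyclases and protein kinase A subunits 1 was called higher and 2 lower on the deposited scale (median -0.17). Over all tested symbols 23.3% were called higher and 42.0% lower, and 5 of the 12 listed genes were not tested. The counts were 3 and 3 on quantile-normalized values and 3 and 1 with totals equal apart from small RNA genes (median 0.17). Those of all 9916 tested symbols were 2827 and 3269, then 4480 and 2046. Prkar2a, a regulatory subunit of that kinase, averaged 1.19 ± 0.0404 FPKM in NULL and 3.22 ± 0.173 FPKM in WT (log2 change -0.95, limma adjusted p = 3.69e-05) and was called lower under all rescalings. Prkar2b, the gene called higher, lost its call under 1 rescaling and without NULL B, NULL C or WT C. Adcy3, the other called lower, lost it under 3 rescalings and when any library other than WT A was left out.

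The factors that assemble G-protein subunits and lipidate gamma subunits were lower or not called on the deposited scale. Of 16 tested, 12 fell and 0 rose (median -0.60), where 42.0% of all tested symbols were called lower. The 16 include Ric8b, a chaperone of alpha subunits, which was not called as deposited and was called higher under 2 rescalings. The counts were 2 higher and 9 lower with median-of-ratios factors, 1 and 11 on quantile-normalized values, 0 and 6 with equal totals, and 3 and 8 with totals equal apart from small RNA genes. Those of all 9916 tested symbols were 3143 and 3242, 2827 and 3269, 2023 and 1003, and 4480 and 2046 in that order. All 8 tested subunits of the cytosolic chaperonin CCT, which folds beta subunits and many other proteins, were among those 12, and 6 of the 8 were called under every rescaling. Cct6a averaged 113 ± 11.0 FPKM in NULL and 277 ± 2.31 FPKM in WT (limma log2 change -1.29, SE 0.0864, adjusted p = 2.67e-05), and Tcp1 113 ± 5.02 FPKM in NULL and 244 ± 4.32 FPKM in WT. Pdcl, whose product is the co-chaperone that joins beta to gamma, was not called at 19.0 ± 1.26 FPKM in NULL and 17.4 ± 1.64 FPKM in WT, and was called higher under 3 rescalings. Among the lipidation genes Pggt1b, a subunit of the enzyme that puts the lipid on most gamma subunits, was lower at 8.85 ± 0.637 FPKM in NULL and 11.4 ± 0.472 FPKM in WT, but its call was lost under 2 rescalings, 1 of which turned its sign.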

How the data were processed

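Poly(A) RNA was made into stranded, paired-end libraries, per the labels' protocols. The authors deposited FPKM per gene symbol, 1 column a library. Per the submitters' processing notes, the tools were Bowtie and Cufflinks and the builds mm10 and GRCm38, without version or role. No annotation, filter or between-library scaling is stated in these sources. Groups and letters come from sample titles. The table had 23848 rows, and the highest row was kept for each of 256 repeated symbols.

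Limma 3.58.1 in R 4.3.3 was fitted to log2(FPKM + 1) for all 9916 symbols with a mean of at least 1 FPKM, with a variance trend and Benjamini-Hochberg adjustment at 0.05. This scale understates changes of weakly expressed genes. The fit was tested on simulated data. Rough depth was read off the spacing of low FPKM values and GENCODE vM21 transcript lengths, and supports no counting interval.

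Genes and lists were chosen with earlier results of these data known. Named are every member, list genes led by the widest called changes, and the 5 nearest profiles to Gng4 (1 for other members). Ric8a of the assembly list was not analysed here. Alternatives were 2 pseudocounts, 2 filters, 4 rescalings, 2 moderations, a replicate block and leaving out each library. The main fit did not take same-letter libraries as pairs. The correlation of their deviations was 0.0735 for A, 0.355 for B and 0.133 for C. Between different letters it ran from -0.202 to 0.0451. Pairing by letter is thus possible, and only the replicate block takes it into account.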

Additional observations from a re-analysis of the deposited data

How the results depend on the processing

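The calls of Gng4 and Gng2 held under all 17 alternatives, and Gnb2 was also called higher under 3. Members called lower numbered 4 on the deposited scale, 2 after quantile normalization, 0 with totals made equal (where 2 members were called in all) and 1 with totals equal apart from small RNA genes. Gnb4 changed sign to 0.11, 0.082 and 0.18 under those settings in that order. Of all 9916 tested symbols, 4168 were called lower as deposited, and 3269, 1003 and 2046 under the same settings in turn. Among the other G-protein genes, with Gnb1l and Gnb2l1 counted, 40 were called, 15 higher and 25 lower. The number higher was 8 with a mean of at least 5 FPKM required, which tests fewer genes, 24 after median-of-ratios rescaling and 28 with totals equal apart from small RNA genes, where 11 were lower. Equal totals left 21 called, 8 of them lower. Among all tested symbols, 1364 of 7067 were higher with that filter and 3143 of 9916 after median-of-ratios rescaling. With totals equal apart from small RNA genes 4480 were higher and 2046 lower, and with equal totals 2023 and 1003. Small RNA genes, which count in those totals, held 8.68% to 30.1% of the summed FPKM in NULL libraries and 6.06% to 31.5% in WT libraries. For the rescalings the cause was not tested. With all gamma genes in the sum the difference in the share of Gng4 was 15.4 percentage points, a wider denominator by construction. Leaving out each library in turn moved the difference in the ratio of beta to gamma between -0.1001 and 0.0165, the positive value coming without WT B. The replicate block called 6 members (2 higher, 4 lower) and 35 other G-protein genes (Gna11, Icmt, Adcy3, Prkar2b and Gnb2l1 were lost), changed no member's call, and every library correlated best with its own letter. Depth limits Gnb5 and Gng7, which rest on few fragments.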
